A study of Mus musculus with 2 samples.

Results

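Small RNA tags of mitochondrial origin were examined in J1 cells, a mouse embryonic stem (ES) cell line. A tag is a distinct sequence of the small RNA libraries with its number of reads. Tags were taken as mitochondrial when they matched without mismatch, over their whole length, a GENCODE vM21 transcript of a gene whose symbol starts with mt-. These are 37 of the 55450 genes searched, namely 22 tRNAs, 2 rRNAs and 13 mRNAs. The study set cells treated for 24 h with 1 mM AICAR, an activator of AMP-activated protein kinase, against cells given the same volume of DMSO, its solvent, for 24 h. Both were J1 cells on gelatin in serum replacement medium with LIF, and the control library is titled J1_U while its treatment is given as DMSO. There was 1 library per condition. Every p-value below therefore compares the reads of the 2 libraries and not the conditions, and the intervals reflect the counting of reads alone. PCR copies of 1 molecule were counted apart, so the intervals may also be too narrow for counts of molecules.

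Mitochondrial DNA is transcribed from both strands into long precursors. tRNAs lie between most of the rRNAs and mRNAs, and cutting at the 5′ end of a tRNA by RNase P and at its 3′ end by ELAC2 releases the neighbouring RNAs. The enzyme TRNT1 then adds CCA to the 3′ end of each tRNA. The mRNAs encode subunits of respiratory chain complexes and of ATP synthase, and many of them begin at or near their start codon. The rRNAs mt-Rnr1 and mt-Rnr2 belong to the small and the large subunit of the mitochondrial ribosome. ES cells use the respiratory chain less than many differentiated cells do.

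Tag sequences of the rRNAs and of some of the more abundant tRNAs are given first. They are the most frequent tag of the 2 rRNAs and of 4 tRNAs, of which the tRNA tags start just before the anticodon, in capitals. Coordinates are those of chrM in GRCm38 as annotated in GENCODE vM21.
mt-Rnr2, bases 1 to 25, chrM:1094-1118, plus strand: actaatcctagccctagccctacac
mt-Rnr1, bases 516 to 536, chrM:585-605, plus strand: aaaggacttggcggtacttta
mt-Tp, bases 28 to 50, chrM:15373-15395, minus strand: cttTGGgtgctggtggtggggag
mt-Tc, bases 27 to 44, chrM:5214-5231, minus strand: ttGCAaattcgaaggtgt
mt-Th, bases 27 to 47, chrM:11572-11592, plus strand: actGTGaatctgacaacagga
mt-Tg, bases 28 to 47, chrM:9418-9437, plus strand: actTCCaattagtagattct

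The libraries held 18870345 (DMSO) and 21091226 (AICAR) clean reads. Values are given as RPM (clean reads scaled to a sum of 1000000), so that 1 read was worth 0.0530 RPM with DMSO and 0.0474 RPM with AICAR. Reads of miRNA hairpins were 11.6% and 15.7% of the libraries, and tags of 18 to 20 nt were 21.3% and 16.3%, with the DMSO value first. The ES cell markers were present, with 31102 and 53940 RPM over 5 hairpins of the miR-290 cluster and 45.8 and 41.0 RPM over 7 mRNAs. Hairpins that mark other cells also had reads, at 92.3 and 91.5 RPM for the fibroblast list, 157 and 203 RPM for muscle, 257 and 410 RPM for neurons, 2.91 and 25.4 RPM for liver, and 16.5 and 15.8 RPM for blood. The part of these library differences in the results below was not tested. In RNA from whole cultures, a change in the number of cells that hold an RNA and a change in its amount per cell cannot be told apart.

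Mitochondrial tags made up 14056 reads with DMSO and 26182 with AICAR, which is 0.0745% and 0.124% of the clean reads. They comprised 9738 distinct tags of 18 to 33 nt, of which 2163 were found in both libraries and 5950 were read once. No tag matched mitochondrial genes in both directions. Tags in the sense direction stood at 636 RPM with DMSO and 1082 RPM with AICAR, or 1.70-fold higher (95% interval 1.67 to 1.74). Antisense tags stood at 109 and 159 RPM, which is 1.46-fold (1.38 to 1.54; Fisher's exact test, p = 3.5e-42). Most mitochondrial reads were thus sense fragments of rRNAs and tRNAs, and their share of the library was larger with AICAR.

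The 3 RNA classes differed in level and in fold change. rRNA tags were the most abundant, with 362 RPM with DMSO and 567 RPM with AICAR (1.57-fold, 1.52 to 1.62, p = 1.6e-199 by Fisher's exact test). tRNA tags stood at 167 and 375 RPM, which is 2.24-fold (2.15 to 2.34). mRNA tags stood at 107 and 140 RPM (1.31-fold, 1.24 to 1.39, p = 2.7e-21 by Fisher's exact test). tRNA tags therefore had the largest relative difference of the classes. The fold change of tRNA tags was 1.71 times that of mRNA tags (1.59 to 1.83, p = 2.3e-50) and 1.43 times that of rRNA tags (1.36 to 1.51, p = 4.8e-44), both by Fisher's exact test between the 2 libraries. Relative to miRNA hairpin reads in place of all clean reads, the mRNA fold change was below 1 (0.965), that of tRNA tags was 1.65 and that of rRNA tags 1.15, and relative to all mitochondrial reads both mRNA (0.787) and rRNA tags (0.941) were below 1.

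A gene was called when its fold change was at least 2 or at most 0.5 and its adjusted p at most 0.01, by Fisher's exact test with Benjamini-Hochberg adjustment over all genes tested in that direction. Genes were tested when they had a mean of at least 1 RPM over both libraries. Of the 37 mitochondrial genes 35 were tested in the sense direction, 16 of these were called higher with AICAR and none lower, and 26 had an unadjusted p under 0.05. Among all 12537 genes tested in the sense direction 3.42% were called higher and 9.44% lower. The median fold change was 1.95 over the 35 mitochondrial genes and 0.845 over all genes tested. All 35 had a fold change above 1, from 1.00 for mt-Nd4l to 3.77 for mt-Tk. The 16 genes called higher were all tRNAs, so that neither rRNA and none of the 13 mRNAs passed both thresholds. When edgeR was given a coefficient of variation of 0.2 or 0.4 between libraries in place of counting error alone, 1 and 0 of them were called, and relative to hairpin reads 3 were.

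**Figure D1:**
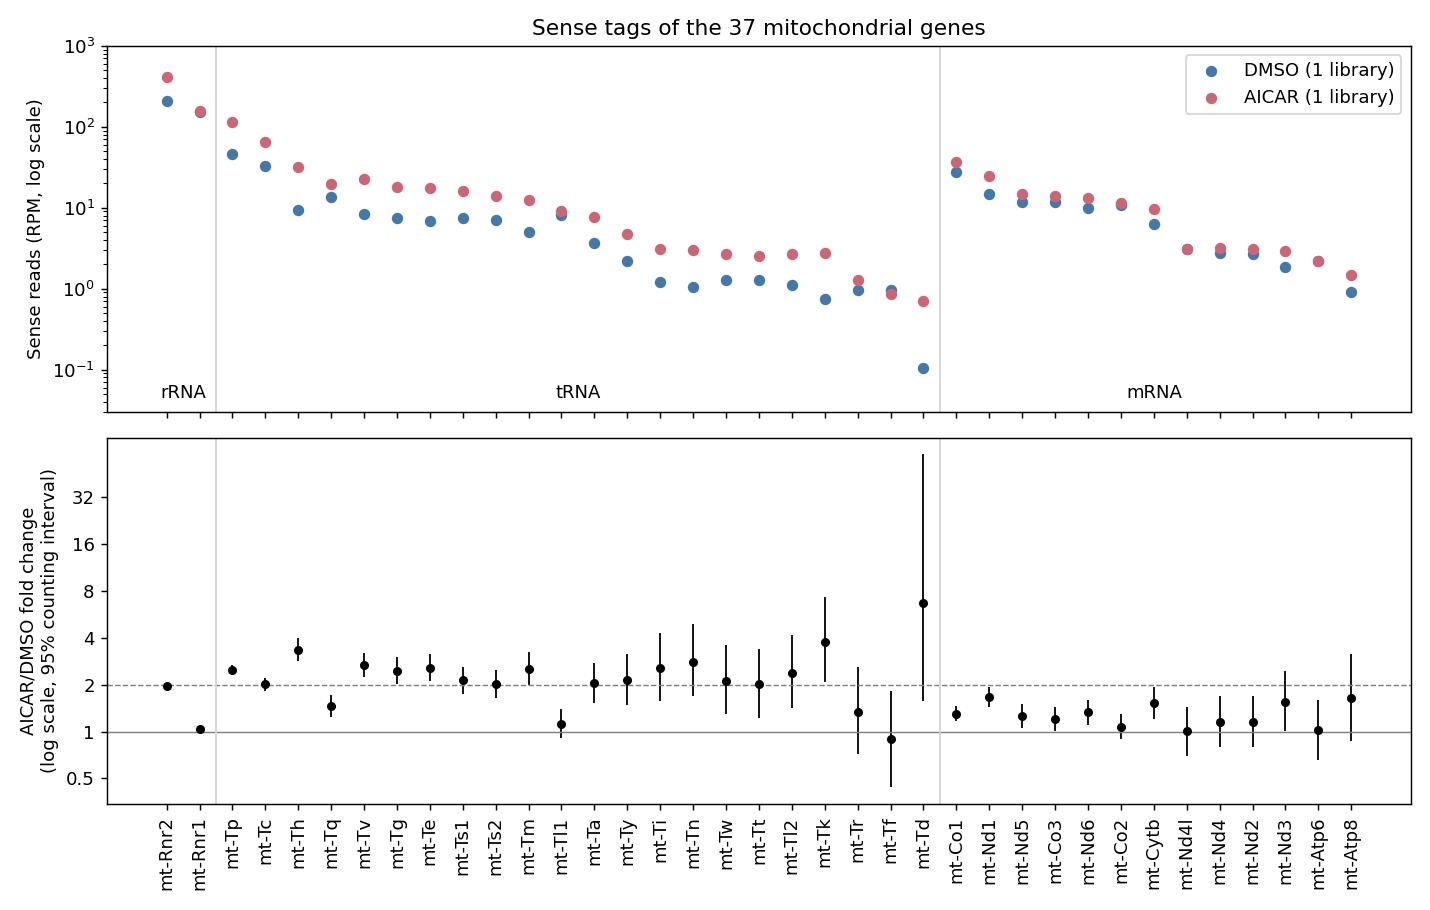
Sense reads of the 37 mitochondrial genes in RPM on a log scale (upper panel, 1 point per library) and the AICAR/DMSO fold change on a log scale with its 95% counting interval (lower panel, dashed line at 2). Among the 20 tRNAs tested, 17 lie above a fold change of 2, while every mRNA lies below it and mt-Rnr2 stands at 1.95.

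mt-Rnr2, the 16S rRNA, was the mitochondrial gene with the most reads. It had 3984 reads (211 RPM) with DMSO and 8678 reads (411 RPM) with AICAR, which is 1.95-fold (1.88 to 2.02; adjusted p = 3.2e-282 by Fisher's exact test with Benjamini-Hochberg adjustment), just under the threshold of 2. mt-Rnr1, the 12S rRNA, had 2840 reads (151 RPM) and 3279 reads (155 RPM), which is 1.03-fold (0.982 to 1.09) and did not pass the test (adjusted p = 0.309, same test). The 2 rRNAs are copied from the same strand as neighbours, with only mt-Tv between them, and the difference between their fold changes was not tested.

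The difference in mt-Rnr2 lay largely at its first base. Tags that start at base 1, which is chrM:1094 and the base after the end of mt-Tv, had 1274 reads (67.5 RPM) with DMSO and 4839 reads (229 RPM) with AICAR, which is 3.40-fold (3.19 to 3.62). They formed 32.0% of the reads of the gene with DMSO and 55.8% with AICAR. All other tags of mt-Rnr2 together stood at 144 and 182 RPM, which is 1.27-fold (1.21 to 1.33). The start was chosen for its reads, so its fold change is a description. The tags at base 1 shared that start and differed in their 3′ end, with 14 lengths from 18 to 31 nt.

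The lengths of these tags did not all move alike. The 24-nt tag had 236 reads with DMSO and 1283 with AICAR (4.86-fold, 4.23 to 5.61), and the 25-nt tag, printed above, had 288 and 1274 (3.96-fold, 3.48 to 4.51). The 18-nt tag had 34 and 29 reads (0.763-fold, 0.449 to 1.29), and the 30-nt tag had 69 and 74 (0.960-fold, 0.682 to 1.35). The intervals lay above 1 for each length from 20 to 29 nt, and those of the 2 shortest and the 2 longest tags included 1. A total of 31 starts in mt-Rnr2 had at least 50 reads over both libraries. Base 1 had the highest fold change among them, and the other 30 ranged from 0.802 to 2.75 with a median of 1.29. In mt-Rnr1, tags that start at base 1 had 85 and 105 reads (1.11-fold, 0.822 to 1.49), only 2.99% and 3.20% of that gene.

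**Figure D2:**
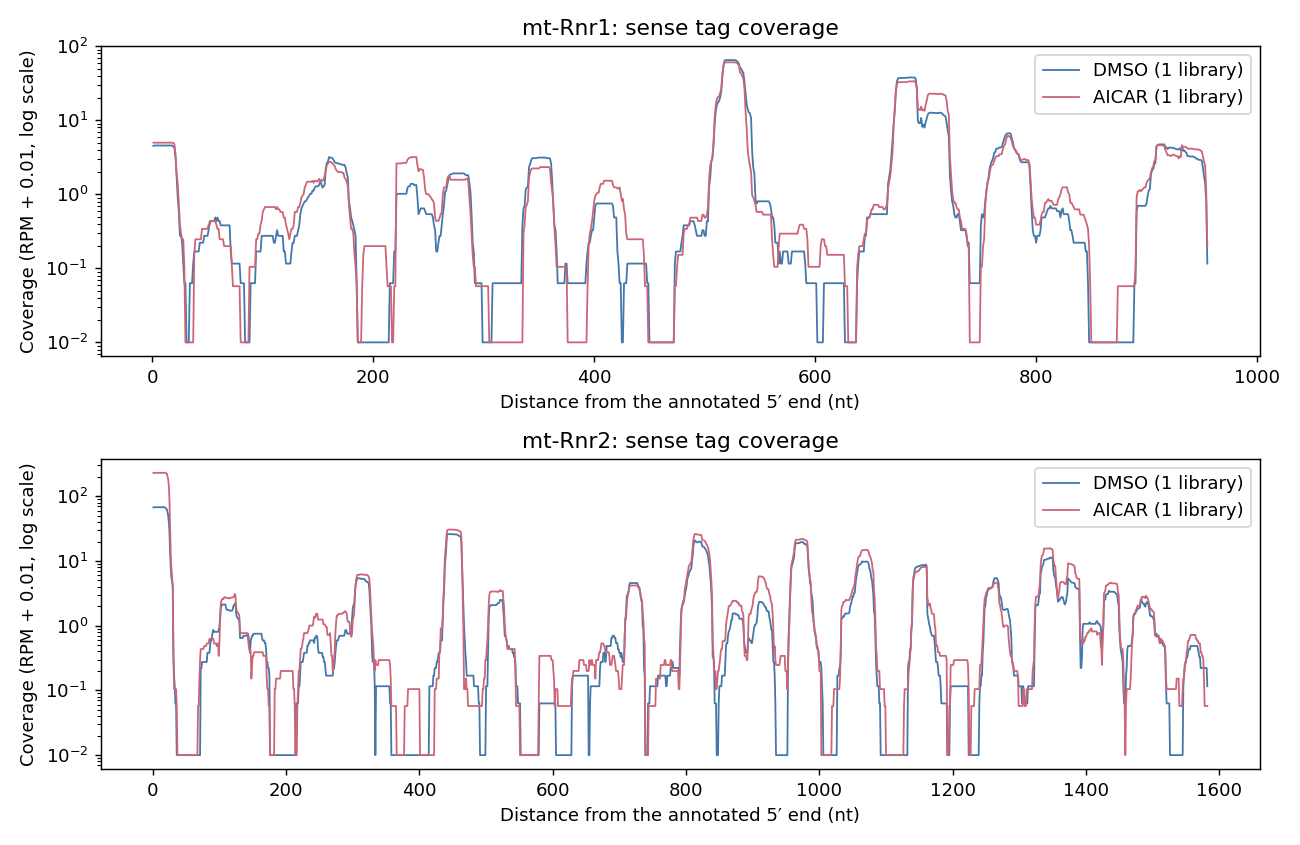
Sense tag coverage of mt-Rnr1 (upper panel) and mt-Rnr2 (lower panel) in RPM plus 0.01 on a log scale, by distance from the annotated 5′ end, with 1 line per library. The 2 lines lie close together over most of both rRNAs, and they part at the 5′ end of mt-Rnr2, where tags starting at base 1 had 67.5 RPM with DMSO and 229 RPM with AICAR.

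In mt-Rnr1 the reads were gathered in internal blocks. The start at base 516, which gives the mt-Rnr1 tag printed above, had 265 reads with DMSO and 346 with AICAR (1.17-fold, 0.993 to 1.38). The next start, at base 517, had 293 and 235 reads (0.718-fold, 0.602 to 0.855). The interval of the first of these neighbouring starts includes 1 and that of the second lies below it. The printed tag itself had 60 and 109 reads, only 2.11% and 3.32% of the gene. A tag from base 674 had nearly as many reads and went the other way, with 104 and 63 (0.542-fold, 0.390 to 0.748). Of the 26 starts of mt-Rnr1 with at least 50 reads, 3 had a fold change of at least 2 and none one of at most 0.5.

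The tRNAs ranged from 0.106 RPM for mt-Td with DMSO to 115 RPM for mt-Tp with AICAR. Of 22 tRNAs 20 were tested, with a median fold change of 2.27 and a range from 1.12 to 3.77, and all 20 were above 1. The 16 called higher are mt-Tp, mt-Tc, mt-Th, mt-Tv, mt-Tg, mt-Te, mt-Ts1, mt-Ts2, mt-Tm, mt-Ta, mt-Ty, mt-Ti, mt-Tn, mt-Tw, mt-Tl2 and mt-Tk. The tRNAs tested but not called were mt-Tl1 (152 and 191 reads, 1.12-fold), mt-Tq (257 and 418 reads, 1.46-fold), mt-Tr (18 and 27 reads, 1.34-fold) and mt-Tt (24 and 54 reads, 2.01-fold, adjusted p = 0.0110 by Fisher's exact test with Benjamini-Hochberg adjustment). mt-Tf had 18 reads in each library and mt-Td 2 and 15 reads, both under the limit for testing.

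mt-Tp, the tRNA for proline, was the most abundant tRNA in both libraries. It had 878 reads (46.5 RPM) with DMSO and 2435 reads (115 RPM) with AICAR, which is 2.48-fold (2.30 to 2.68; adjusted p = 3.6e-130 by Fisher's exact test with Benjamini-Hochberg adjustment). mt-Tc, the tRNA for cysteine, had 616 reads (32.6 RPM) and 1385 reads (65.7 RPM), which is 2.01-fold (1.83 to 2.22). mt-Th, the tRNA for histidine, had 179 reads (9.49 RPM) and 669 reads (31.7 RPM), which is 3.34-fold (2.83 to 3.97). These are 3 of the 6 tRNAs with the highest mean level, and mt-Th had the largest fold change of the 6. The others were mt-Tv, for valine (159 and 475 reads, 2.67-fold, 2.23 to 3.22), mt-Tg, for glycine (140 and 386 reads, 2.47-fold, 2.03 to 3.01), and mt-Tq, for glutamine (257 and 418 reads, 1.46-fold, 1.24 to 1.71). mt-Tq passed the adjusted p but not the fold threshold.

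The less abundant tRNAs that were called covered fold changes from 2.02 to 3.77. mt-Te, for glutamate, had 130 and 374 reads (2.57-fold, 2.10 to 3.17), and mt-Tm, for methionine, had 94 and 265 (2.52-fold, 1.99 to 3.23). The 2 serine tRNAs, mt-Ts1 and mt-Ts2, had 143 and 341 reads (2.13-fold, 1.75 to 2.61) and 132 and 298 reads (2.02-fold, 1.64 to 2.50). mt-Ta, for alanine, had 70 and 160 reads (2.05-fold, 1.53 to 2.75), and mt-Ty, for tyrosine, 42 and 101 (2.15-fold, 1.49 to 3.16). Their intervals overlap, so that no order among them could be read at this depth. mt-Ti, for isoleucine, had 23 and 66 reads (2.57-fold, 1.58 to 4.33) and mt-Tn, for asparagine, 20 and 63 (2.82-fold, 1.68 to 4.92). mt-Tw, for tryptophan, had 24 and 57 reads (2.12-fold, 1.30 to 3.58) and mt-Tl2, the leucine tRNA with the anticodon TAG, 21 and 56 (2.39-fold, 1.42 to 4.15). mt-Tk, for lysine, had the largest fold change from the fewest reads, 14 and 59 (3.77-fold, 2.08 to 7.31).

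The anticodon triplet was located once in each of the 22 tRNAs, and tag starts were counted from its first base. Starts 3 bases before the anticodon held 45.5 RPM with DMSO and 133 RPM with AICAR, and starts 2 bases before it 33.8 and 64.8 RPM. Tags that start 1 to 4 bases before the anticodon, a window set after the values were seen, made up 53.5% of the tRNA reads with DMSO (51.8% to 55.3%, Wilson interval) and 58.9% with AICAR (57.9% to 60.0%). Their reads were 1689 and 4664, which is 2.47-fold (2.34 to 2.61). They formed over 50% of the reads of 5 tRNAs, mt-Tc, mt-Tg, mt-Tr, mt-Th and mt-Tp. Most of the 1689 and 4664 reads came from mt-Tp (753 and 2209) and mt-Tc (594 and 1329), so the pooled share mainly describes these tRNAs. In others such tags were rare or absent, as in mt-Tq (8 of 257 and 17 of 418 reads) and mt-Ts1 (none). The tags printed above for mt-Tp, mt-Tc, mt-Th and mt-Tg are of this kind, and each holds the anticodon near its 5′ end.

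**Figure D3:**
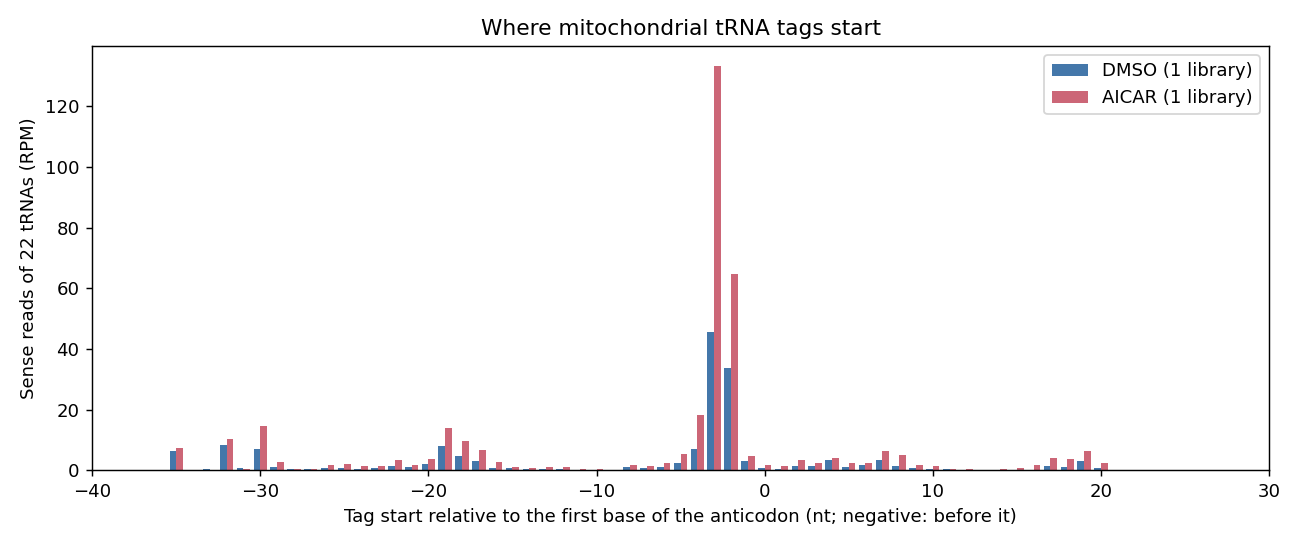
Sense reads of the 22 mitochondrial tRNAs in RPM by the distance of the tag start from the first base of the anticodon, with 1 bar per library. The highest bars stand 3 and 2 bases before the anticodon, at 45.5 and 33.8 RPM with DMSO and 133 and 64.8 RPM with AICAR.

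The most frequent tags of these tRNAs did not all follow their gene. The mt-Tp tag had 203 reads with DMSO and 948 with AICAR (4.18-fold, 3.59 to 4.89), above the 2.48-fold of the gene. The 18-nt mt-Tc tag had 286 and 494 reads (1.55-fold, 1.33 to 1.79), and the tag with 1 more base, of 19 nt, had 151 and 361 (2.14-fold, 1.76 to 2.60). The shorter of the 2 mt-Tc tags therefore had the smaller fold change. The mt-Th tag had 43 and 198 reads (4.12-fold, 2.95 to 5.87) and the mt-Tg tag 55 and 132 (2.15-fold, 1.56 to 2.997). The starts that give them held 61.6% and 70.3% of mt-Tp, 73.4% and 66.6% of mt-Tc, 52.5% and 67.9% of mt-Th and 55.7% and 50.0% of mt-Tg.

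A second group of tRNAs gave tags that start at base 1. These tags were over 50% of the reads of 5 tRNAs, mt-Tl1, mt-Ti, mt-Tq, mt-Ts1 and mt-Ts2. The most frequent tag is shown for 4 of them, for mt-Tk, which has the same pattern at 43.8% of its reads, and for mt-Te, which gave the most reads that end at the last base of a tRNA. Capitals again mark the anticodon where a tag reaches it. The mt-Tk tag had only 2 and 7 reads and the mt-Ti tag 3 and 13.
mt-Tq, bases 1 to 20, chrM:3823-3842, minus strand: taggataaggtgtttaggta
mt-Ti, bases 1 to 25, chrM:3706-3730, plus strand: agaaatatgtctgataaaagaatta
mt-Ts1, bases 1 to 28, chrM:6911-6938, minus strand: gagaaagacatataggatatgagattgg
mt-Ts2, bases 1 to 23, chrM:11613-11635, plus strand: aagaaagattgcaagaactGCTa
mt-Tk, bases 1 to 22, chrM:7700-7721, plus strand: cactatgaagctaagagcgtta
mt-Te, bases 50 to 69, chrM:14071-14090, minus strand: ttgaatgctgtgtagaaata

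Over all tRNAs, tags that start at base 1 had 555 reads with DMSO and 989 with AICAR (1.59-fold, 1.44 to 1.77, p = 4.1e-19 by Fisher's exact test). Tags that end at the last base of the annotated tRNA, without CCA, were fewer, with 99 and 348 reads (3.15-fold, 2.51 to 3.97, p = 6.5e-28 by Fisher's exact test). All remaining tags were internal, with 2502 and 6576 reads (2.35-fold, 2.25 to 2.46). The 5′ end tags thus had a smaller fold change than the internal and the untailed 3′ end tags, and the intervals do not overlap. This does not extend to 3′ ends with an added C, CC or CCA, which lie outside the matching rule. Those tailed ends had 148 and 277 reads (1.67-fold, 1.37 to 2.06), an interval that overlaps that of the 5′ end tags. The classes drew on different tRNAs. With DMSO, mt-Tl1, mt-Tq and mt-Ts2 gave 118, 145 and 115 of the 555 base 1 reads. mt-Tp and mt-Tc gave 859 and 616 of the 2502 internal reads. Tags at base 1 had a smaller fold change than the other tags of the same gene in mt-Tq, mt-Ts1, mt-Ts2, mt-Tk and mt-Tw. The reverse held in mt-Ti, mt-Tm, mt-Tt and mt-Tl1. The part of this mix in the difference was not tested. mt-Te gave 55 of the 99 reads at the 3′ end with DMSO and 184 of the 348 with AICAR, and mt-Tv gave 20 and 80. The mt-Te tag printed above had 40 and 91 reads (2.04-fold, 1.39 to 3.03).

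The other tRNAs called higher gave tags from more varied positions, and their most frequent tags had few reads. The mt-Tv tag ended at the last base and the mt-Tm tag held the anticodon inside. For mt-Tw, mt-Ty and mt-Tl2 the tag ended at or just after the anticodon, and for mt-Ta and mt-Tn it started inside or after it. The mt-Tn tag had no read with DMSO, where 3 reads would be 0.159 RPM, and 15 reads with AICAR.
mt-Tv, bases 50 to 69, chrM:1074-1093, plus strand: atgaccaatgaacactctga
mt-Tm, bases 25 to 49, chrM:3869-3893, plus strand: cgggccCATaccccgaaaacgttgg
mt-Tw, bases 14 to 34, chrM:4963-4983, plus strand: atactagtccgcgagcctTCA
mt-Ta, bases 39 to 60, chrM:5027-5048, minus strand: atagatgtaggatgaagtctta
mt-Tn, bases 34 to 53, chrM:5107-5126, minus strand: taactaaattttcgtaggtt
mt-Ty, bases 13 to 31, chrM:5296-5314, minus strand: gagtaagcattagactGTA
mt-Tl2, bases 14 to 37, chrM:11684-11707, plus strand: aatagtaatccattggtctTAGga

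The 13 mRNAs had lower levels than the rRNAs and the leading tRNAs, from 0.901 to 36.3 RPM in the sense direction. All 13 were tested and none was called, since no fold change reached 2. The median was 1.26 with a range from 1.00 to 1.66, and 4 mRNAs passed the adjusted p alone. These were mt-Nd1, mt-Co1, mt-Cytb and mt-Nd6, while 7 had an unadjusted p under 0.05. mt-Co1, a catalytic subunit of cytochrome c oxidase, had the most reads, 525 (27.8 RPM) and 765 (36.3 RPM), which is 1.30-fold (1.17 to 1.46). mt-Nd1, a subunit of complex I, had 280 (14.8 RPM) and 518 (24.6 RPM), which is 1.66-fold (1.43 to 1.92; adjusted p = 3.4e-11 by Fisher's exact test with Benjamini-Hochberg adjustment). Most reads of mt-Nd1 came from neighbouring starts, given below. mt-Nd5, also of complex I, had 221 and 311 reads (1.26-fold, 1.06 to 1.50), and mt-Co3, of cytochrome c oxidase, had 223 and 298 (1.20-fold, 1.00 to 1.43). mt-Nd6, of complex I and the mRNA encoded on the minus strand, had 189 and 280 reads (1.33-fold, 1.10 to 1.60).

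About as many mRNA reads matched nuclear transcripts as did not. The share that also matched a nuclear GENCODE transcript without mismatch was 52.4% with DMSO and 49.1% with AICAR for sense mRNA tags, and 51.5% and 52.7% for antisense ones. For tRNA tags it was 5.04% and 2.84%, and for rRNA tags 1.26% and 0.853%. The nuclear transcripts with the most shared reads were the unprocessed pseudogenes Gm13340, Gm28437 and Gm28661. All sense reads of mt-Co2, mt-Atp6 and mt-Co3 were shared, whereas none of mt-Nd1 was and 16 of 189 and 24 of 280 reads of mt-Nd6 were. For mt-Co1, the mRNA with the most reads, 381 of 525 and 579 of 765 sense reads were shared. For the shared tags the mitochondrial and the nuclear copy cannot be told apart. The tRNA mt-Tl1 had 121 of 152 and 153 of 191 reads in common with nuclear transcripts. mt-Ty, which was called higher, had 21 of 42 and 41 of 101 in common, among them its tag printed above. mt-Tt had 12 of 24 and 25 of 54.

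Tags of the mRNAs were compared with tags of 21938 nuclear protein-coding genes, leaving out those that match both. The tags of nuclear protein-coding genes stood at 48998 RPM with DMSO and 42868 RPM with AICAR, which is 0.875-fold (0.872 to 0.877). Tags that also match a miRNA hairpin were not left out of this set. Its most common length was 22 nt, with 21.1% of its reads with DMSO and 25.6% with AICAR. The set can therefore hold small RNAs beside mRNA fragments. Mitochondrial mRNA tags without the shared ones stood at 50.9 and 71.3 RPM, a fold change of 1.40. The ratio of the fold changes was 1.60 (1.48 to 1.74, p = 8.1e-31 by Fisher's exact test). The ratio of these values does not depend on the denominator of the RPM values.

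The most frequent sense tag of each mRNA named here lay inside the gene. For mt-Nd1, tags that start at bases 580 and 581 held most of the reads, with 81 and 123 reads with DMSO and 170 and 264 with AICAR. These tags were long for the class, and the one printed below had 63 and 172 reads (2.44-fold, 1.82 to 3.31). The starts at bases 580 and 581 stood at 1.88-fold (1.43 to 2.48) and 1.92-fold (1.54 to 2.40). Without the start at base 581 the fold change of mt-Nd1 was 1.45 (1.18 to 1.78), and the value without both starts was not computed. In mt-Co1 the leading start, at base 343, held 9.14% and 7.32% of the reads, so that its tags were spread more evenly. The printed mt-Co1 tag had 26 and 32 reads and also matches nuclear transcripts. Those of mt-Nd5 (3 and 7 reads), mt-Co3 (3 and 14) and mt-Nd6 (4 and 4) were small parts of their genes.
mt-Nd1, bases 581 to 609, chrM:3331-3359, plus strand: accgggcccccttcgacctgacagaagga
mt-Co1, bases 343 to 366, chrM:5670-5693, plus strand: tcatcaatagtagaagcaggagca
mt-Nd5, bases 467 to 492, chrM:12208-12233, plus strand: gatgatggtacggacgaacagacgca
mt-Co3, bases 226 to 247, chrM:8832-8853, plus strand: caaaaaggactacgatatggta
mt-Nd6, bases 407 to 429, chrM:13642-13664, minus strand: aaggagggattggggtagcggca

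Tags that begin with the first codon were found for 5 of the 13 mRNAs. They had 105 reads (5.56 RPM) with DMSO and 90 reads (4.27 RPM) with AICAR, which is 0.767-fold with an interval that includes 1 (0.572 to 1.03). mt-Co2, a subunit of cytochrome c oxidase, gave 62 and 38 of them, mt-Atp8, a subunit of ATP synthase, 17 and 27, and mt-Nd4l, of complex I, 18 and 17. For mt-Atp8 these were 100% and 87.1% of the sense reads of the gene. All sense reads of mt-Co2, and 59 of 59 and 65 of 66 of mt-Nd4l, also match nuclear transcripts, and none of mt-Atp8 does. The most frequent tag that begins at base 1 is shown for each of the 3 genes, with the start codon in capitals.
mt-Co2, bases 1 to 27, chrM:7013-7039, plus strand: ATGgcctacccattccaacttggtcta
mt-Atp8, bases 1 to 27, chrM:7766-7792, plus strand: ATGccacaactagatacatcaacatga
mt-Nd4l, bases 1 to 24, chrM:9877-9900, plus strand: ATGccatctaccttcttcaacctc

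Antisense tags came mostly from the mRNAs. In the DMSO library antisense reads were 47.8% of all mRNA reads (46.2% to 49.3%), 5.37% of tRNA reads (4.65% to 6.18%) and 0.539% of rRNA reads (0.392% to 0.742%), with Wilson intervals. In the AICAR library the shares were 50.6% (49.4% to 51.9%), 3.46% (3.09% to 3.88%) and 0.325% (0.238% to 0.444%). Antisense mRNA tags stood at 97.7 and 144 RPM, which is 1.47-fold (1.39 to 1.56, p = 5.5e-40 by Fisher's exact test). This was 1.12 times the fold change of the sense mRNA tags (1.03 to 1.22, p = 0.00604 by Fisher's exact test between the libraries). Both sets hold reads that also match nuclear transcripts, 949 and 1598 antisense and 1056 and 1453 sense. The ratio was not computed without these shared reads, so it cannot be assigned to mitochondrial RNA. Antisense tRNA tags stood at 9.49 and 13.5 RPM (1.42-fold, 1.17 to 1.72), and antisense rRNA tags at 1.96 and 1.85 RPM (0.943-fold, 0.586 to 1.52), within counting error.

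For most plus-strand mRNAs the antisense tags outnumbered the sense tags. This was so for 7 of the 13 mRNAs with DMSO, mt-Nd2, mt-Atp6, mt-Nd3, mt-Nd4l, mt-Nd4, mt-Nd5 and mt-Cytb, and for 8 with AICAR, with mt-Co2 added. All antisense reads of mt-Atp6, mt-Nd3 and mt-Co2 also match nuclear transcripts, as do 81 of 84 and 99 of 102 of mt-Nd4l. For these genes the excess cannot be assigned to mitochondrial RNA. The shared antisense reads were 129 of 261 and 193 of 357 for mt-Nd4, 122 of 439 and 149 of 668 for mt-Nd5. They were 26 of 241 and 46 of 409 for mt-Cytb, 10 of 88 and 28 of 129 for mt-Nd2. mt-Nd4, of complex I, had 261 antisense reads against 52 sense reads with DMSO and 357 against 67 with AICAR, so that 83.4% and 84.2% were antisense. mt-Nd5 had 439 against 221 and 668 against 311, or 66.5% and 68.2%. mt-Cytb, of complex III, had 241 against 119 and 409 against 202, or 66.9% in each library. The reverse held for mt-Nd6, which had only 6 and 8 antisense reads, or 3.08% and 2.78%. Sense tags of mt-Nd6 and antisense tags of the other mRNAs have the sequence of the same strand.

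**Figure D4:**
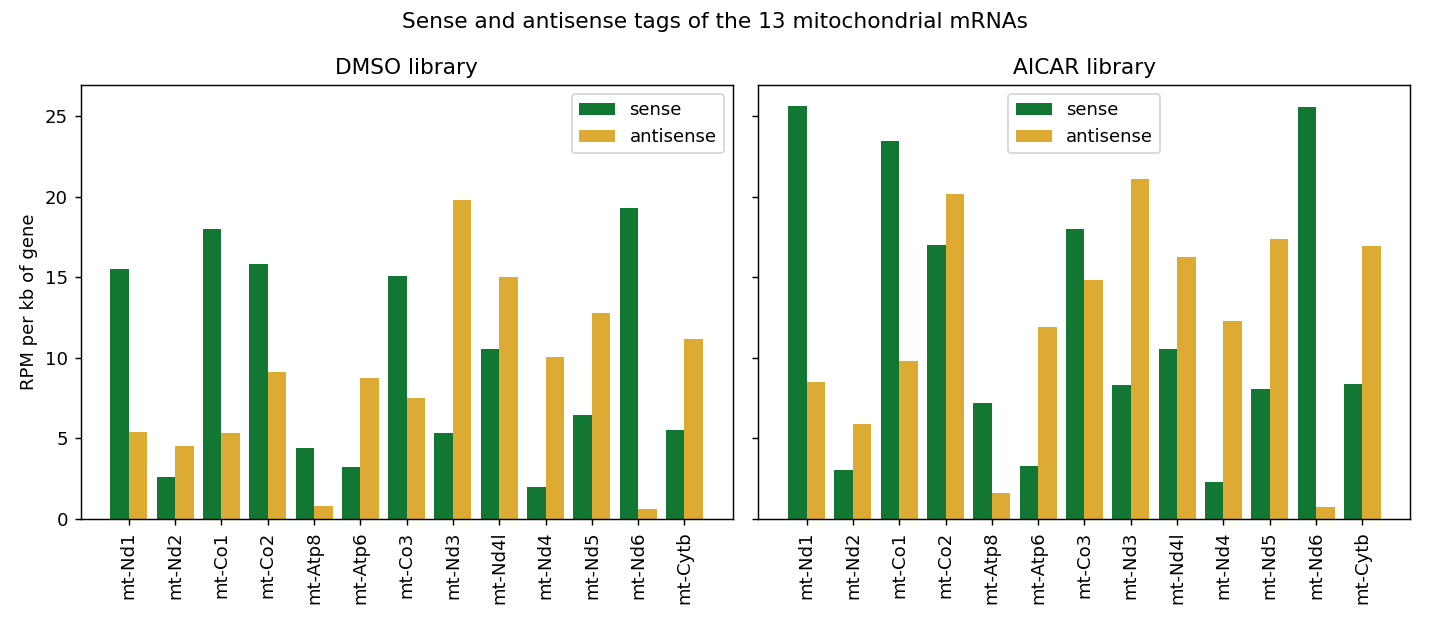
Sense and antisense reads of the 13 mitochondrial mRNAs in RPM per kb of gene, with DMSO (left) and AICAR (right). In both panels antisense exceeds sense for mt-Nd2, mt-Atp6, mt-Nd3, mt-Nd4l, mt-Nd4, mt-Nd5 and mt-Cytb, and mt-Co2 joins them with AICAR. All or nearly all antisense reads of mt-Atp6, mt-Nd3, mt-Nd4l and mt-Co2 also match nuclear transcripts.

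In the antisense direction 14 of the 37 mitochondrial genes were tested and 31 had reads. Of the 14, 2 were called higher and none lower, against 7.46% and 6.75% of all 6636 genes tested in that direction, and 10 had an unadjusted p under 0.05. The median fold change was 1.44 over the 14 genes and 0.988 over all genes tested. The 2 called genes were mt-Co2, with 118 and 291 antisense reads (2.21-fold, 1.78 to 2.76; adjusted p = 3.5e-13 by Fisher's exact test with Benjamini-Hochberg adjustment), and mt-Ts1, with 26 and 65 (2.24-fold, 1.40 to 3.67; adjusted p = 0.00101). All antisense reads of mt-Co2 also match nuclear transcripts, and none of mt-Ts1 does. The genes with the highest antisense levels were below the fold threshold. mt-Nd5 had 23.3 and 31.7 RPM (1.36-fold, 1.21 to 1.54), mt-Cytb 12.8 and 19.4 RPM (1.52-fold, 1.29 to 1.79), mt-Nd4 13.8 and 16.9 RPM (1.22-fold, 1.04 to 1.44) and mt-Co1 8.27 and 15.2 RPM (1.84-fold, 1.51 to 2.24).

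Single starts carried part of the antisense differences in mt-Co1 and mt-Co2. Antisense tags of mt-Co1 with their 5′ end at chrM:6343 had 3 reads with DMSO and 56 with AICAR, a ratio of 16.7 with a wide counting interval (5.43 to 83.4). Without them the fold change of mt-Co1 was 1.54. Antisense tags of mt-Co2 with their 5′ end at chrM:7142 had 17 and 82 reads (4.32-fold, 2.54 to 7.76), and without them the fold change was 1.85, under the threshold. These 2 starts were picked after their values were seen. Of the antisense reads of mt-Co1, 109 of 156 with DMSO and 221 of 320 with AICAR also match nuclear transcripts. The mt-Co1 antisense tag printed below is among these shared tags. The leading antisense tag of each gene named is shown, to be read on the strand opposite to the gene. Most had few reads, 1 and 17 for mt-Co1, 2 and 11 for mt-Ts1, and 4 and 14 for mt-Nd5. The mt-Nd4 tag had 0 and 10, the mt-Cytb tag 1 and 6, and the mt-Co2 tag 7 and 37.
mt-Co1 antisense, chrM:6322-6343, minus strand: agtatagctggagatcatttaa
mt-Co2 antisense, chrM:7121-7142, minus strand: gcgagatgatatagaggactaa
mt-Ts1 antisense, chrM:6871-6893, plus strand: aagaaaggaaggaatcgaacccc
mt-Nd5 antisense, chrM:12239-12261, minus strand: agaggattgcttgtagggctgca
mt-Nd4 antisense, chrM:11273-11295, minus strand: ctattagattgattgaagggggt
mt-Cytb antisense, chrM:14506-14528, minus strand: aaatgctgtggctatgactgcga

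Antisense tags of some tRNAs also had fixed starts. Those of mt-Tp had 65 and 120 reads (1.65-fold, 1.21 to 2.27), and 51 and 78 of them began at chrM:15356, the base after the end of mt-Tt on the plus strand. Those of mt-Ta had 27 and 36 reads, of which 25 and 28 began at chrM:5018, close to the end of mt-Tw at chrM:5016. Both positions lie next to the 3′ end of a tRNA encoded on the strand of the tag. This did not hold for every tRNA. Antisense tags of mt-Ts1 began most often at chrM:6871 (12 of 26 and 32 of 65 reads), within the end of mt-Co1. Those of mt-Tn began most often at chrM:5090 (10 of 14 and 4 of 7 reads), with no such tRNA beside it.

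The split by strand gave a larger difference for the minus strand, but the 2 strands hold different classes of RNA. Sense tags of the 9 genes of the minus strand, which are 8 tRNAs and mt-Nd6, stood at 124 and 263 RPM (2.12-fold, 2.02 to 2.23, p = 8.1e-222 by Fisher's exact test). Those of the 28 genes of the plus strand, which include both rRNAs, stood at 511 and 819 RPM (1.60-fold, 1.56 to 1.64). mt-Tp and mt-Tc together made up most of the minus-strand reads. The plus strand holds 14 tRNAs and 12 mRNAs beside the rRNAs, so this split is also a split by class. Over both strands the tRNA class stood at 2.24-fold and the mRNA class at 1.31-fold, and mt-Nd6 stood at 1.33-fold. The strands were not compared within a class, so no effect of the strand itself can be read from these values.

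Short tags were a smaller share of all 3 sense classes with AICAR. Tags of 18 to 20 nt were 28.9% of the sense mitochondrial reads with DMSO (28.1% to 29.7%) and 21.9% with AICAR (21.4% to 22.4%, p = 1.3e-46 by Fisher's exact test). For tRNA tags the shares were 44.6% and 36.5% (p = 4.3e-15), for rRNA tags 24.3% and 14.5% (p = 1.6e-61), and for mRNA tags 19.7% and 12.5% (p = 7.0e-12), all by Fisher's exact test. For tags of nuclear protein-coding genes the shares were 31.2% and 21.3%, and for all clean reads 21.3% and 16.3%. The most common length of rRNA tags was 22 nt with DMSO and 24 nt with AICAR, and that of tRNA tags 20 and 23 nt. Of the sense classes, mRNA tags had the largest share of tags of 28 nt or more, 16.7% and 17.8%. Much of this came from mt-Nd1. At 29 nt a single mt-Nd1 tag gave 63 of 108 mRNA reads with DMSO and 172 of 221 with AICAR. Another mt-Nd1 tag gave 51 of 89 and 118 of 155 at 30 nt. The share without these tags was not computed.

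**Figure D5:**
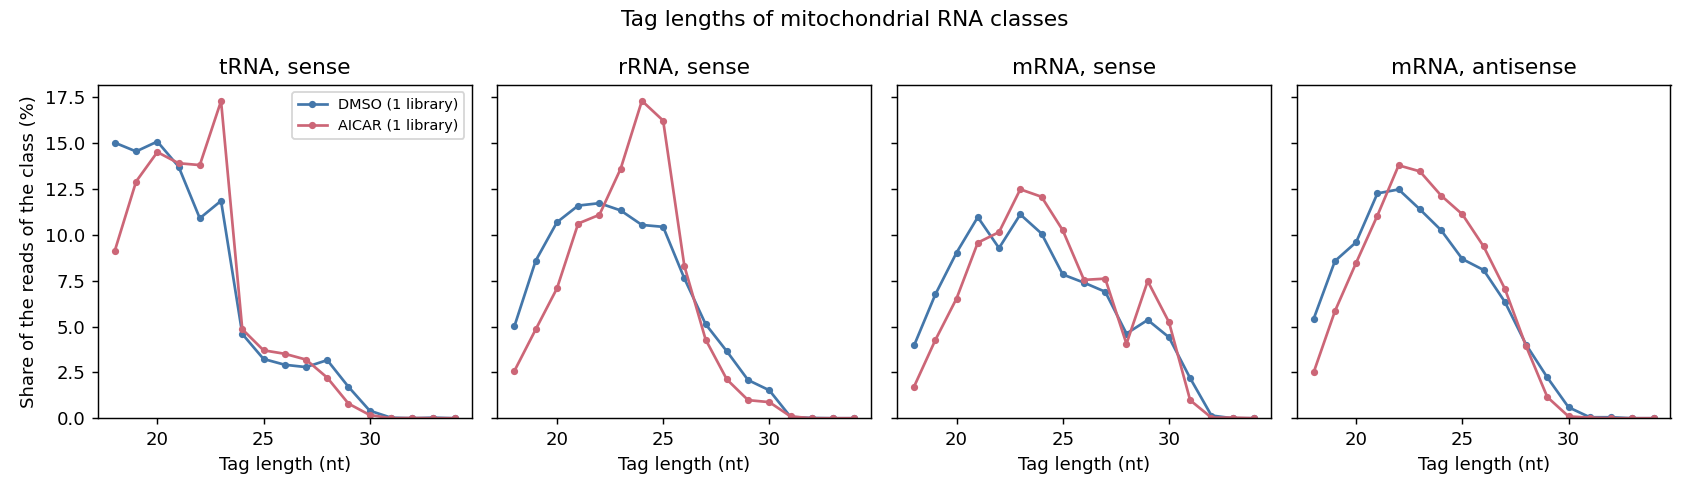
Share of the reads of a class in percent by tag length in nt, for sense tRNA, rRNA and mRNA tags and antisense mRNA tags, with 1 line per library. The AICAR line lies below the DMSO line at 18 to 20 nt in each panel, and the most common length is 24 nt for rRNA tags and 23 nt for tRNA tags with AICAR.

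The nuclear genes that serve the mitochondrial genome were read from the same tags. Of 95 genes of the nuclear respiratory chain 46 were tested, 1 was called higher (Ndufa13, 3.03-fold) and 1 lower (Ndufb5, 0.478-fold), with a median fold change of 0.810. Of 78 mitochondrial ribosomal proteins 37 were tested, 2 were called higher (Mrpl1 and Mrps18c) and 6 lower, with a median of 0.930. The lower ones included Mrpl11 (1928 and 778 reads, 0.361-fold) and Mrps17 (991 and 286 reads, 0.258-fold). Of 39 genes for mitochondrial transcription and RNA processing 12 were tested, none was called higher and 1 lower, Lrpprc (161 and 85 reads, 0.472-fold), which binds and stabilises mitochondrial mRNAs. Over all genes tested 3.42% were called higher and 9.44% lower, with a median of 0.845, and short tags of an mRNA are not a measure of its expression.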

How the data were processed

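The deposited files hold, for each library, the tag sequence, its length and its count of clean reads; low-quality and contaminant reads had been removed by the authors, tags had been mapped to the genome with SOAP, a step not used here (the submitters' processing notes name the build mm9). Counts were used as deposited, with no normalization by the authors. Tags were matched here to both strands of GENCODE vM21 transcripts (GRCm38) without mismatch. A tag was counted once per class and in full for each gene it matches, and divided by clean reads. Each feature was tested against the other clean reads by Fisher's exact test (two-sided, scipy 1.17.1), with exact conditional 95% intervals and Benjamini-Hochberg adjustment. With a mean of at least 1 RPM, 12537 genes were tested sense and 6636 antisense. A count of 0 allows 3 reads, 0.159 RPM (DMSO) or 0.142 RPM (AICAR). Genes named are the rRNAs, the 6 tRNAs and 5 mRNAs with the highest mean sense RPM, the 4 genes with the highest mean antisense RPM, mt-Nd6 and all called genes, each with its most frequent tag. Others, such as mt-Atp8, mt-Nd4l and mt-Tl1, and single starts were named after their values were seen. Members and lists were chosen with earlier results of these data known. The matching and the calls were checked on simulated data, and edgeR 4.0.16 (R 4.3.3) served for alternatives. Library preparation is described in the labels as a TruSeq RNA kit and in the methods as ligation of size-selected small RNA.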

Additional observations from a re-analysis of the deposited data

Results flagged for a closer look

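Tags outside the matching rule also carried mitochondrial sequence above the limit that a count of 0 allows. Tags that run from a tRNA into an added C, CC or CCA, the tail of a mature tRNA, had 148 reads (7.84 RPM) with DMSO and 277 reads (13.1 RPM) with AICAR, which is 1.67-fold (1.37 to 2.06). Of these, 123 and 207 reads had the full CCA. Tags that span the boundary between neighbouring mitochondrial genes had 42 reads (2.23 RPM) and 90 reads (4.27 RPM), which is 1.92-fold (1.32 to 2.84). Over the boundary of mt-Tv and mt-Rnr2 they had 8 and 32 reads, beside the 1274 and 4839 reads that start at base 1 of mt-Rnr2. The values of the boundary tags stand in no comparison of the report, and those of the tailed tags stand only beside the tRNA end classes.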

How the results depend on the processing

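No paired analysis was possible because each condition had 1 library, and no library could be left out. Dropping tags that match the nuclear genome was not run, as no genome was used here, and matching with nuclear transcripts took its place. Scaling moved all log2 fold changes by -0.44 with miRNA hairpin reads as denominator, -0.74 with mitochondrial reads, 0.13 with TMM and 0.16 with median ratios. In what follows the cause of a change was not tested beyond these shifts and the smaller numbers of reads or genes that a setting leaves.
Relative to hairpin reads, sense fold changes were 1.65 for tRNA, 1.73 for internal tRNA and 1.56 for minus-strand tags, and below 1 for mRNA (0.965), mt-Co1 (0.959), mt-Co3 (0.879), mt-Nd5 (0.926), mt-Nd6 (0.975) and mt-Rnr1 (0.760), and for antisense mt-Nd4 (0.900). 3 genes were called sense and 0 antisense, and in the nuclear lists 0 higher and 28 lower, beside 3 and 8.
Relative to mitochondrial reads, which fix their sum, tRNA tags stood at 1.35, internal tRNA at 1.41, 3′ ends at 1.89 and the minus strand at 1.27. Below 1 were mRNA sense (0.787) and antisense (0.883), all antisense (0.874), plus-strand (0.961), rRNA (0.941), 5′ ends (0.957), antisense tRNA (0.852), mt-Co1 (0.782), mt-Co3 (0.717), mt-Nd1 (0.993), mt-Nd5 (0.755), mt-Nd6 (0.795), mt-Rnr1 (0.620), mt-Tq (0.873) and antisense mt-Cytb (0.911), mt-Nd4 (0.734) and mt-Nd5 (0.817). 2 genes were called sense and 0 antisense, with 0 higher and 49 lower in the nuclear lists.
Counting distinct tags in place of reads gave 1.35 for tRNA, 1.41 for internal, 1.39 for 3′ end and 1.30 for minus-strand tags, and below 1 rRNA (0.963), 5′ ends (0.984), mt-Nd1 (0.816), mt-Nd5 (0.904), mt-Rnr1 (0.911) and mt-Rnr2 (0.995), with 0 genes called in either direction and 0 higher and 1 lower in the nuclear lists.
Antisense rRNA tags passed 1 with TMM (1.03), median ratios (1.05) and tags of at least 21 nt (1.02). Sense calls, 16 in the report, were 8 with a mean of at least 10 RPM, and 1 and 0 with edgeR's exact test at an assumed coefficient of variation of 0.2 and 0.4. Chosen after the data were seen, tags found in both libraries gave 6 (mt-Co3 at 0.974), and dropping the most frequent start of each gene gave 10, with the minus strand at 2.00. Antisense calls, 2 in the report, were 4 with TMM and with median ratios, 6 without tags read once, 1 without tags shared with nuclear transcripts, 1 without the most abundant tag or start, 1 at 10 RPM and 0 with edgeR at either value. The nuclear lists then had 5 lower calls with TMM, 4 with median ratios, 3 with tags of at least 21 nt and 3 without the most abundant tag, 0 higher and 5 lower at 10 RPM, 1 and 3 with shared tags divided, 0 and 1 (0.2) or 0 and 0 (0.4) with edgeR, and 0 higher with tags of both libraries. Depth limits mt-Tf, mt-Td and 23 genes in the antisense direction, which were not tested.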

Other observations

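Sense tags of mt-Cytb that start at base 250 had 4 reads with DMSO and 45 with AICAR (10.1-fold, 3.67 to 38.5), and all its other sense tags together stood at 1.22-fold, with an interval that includes 1 (0.954 to 1.57). Antisense tags of mt-Nd3 with their 5′ end at chrM:9616 had 55 and 48 reads (0.781-fold, 0.519 to 1.17) and made up 42.3% and 31.0% of the antisense reads of the gene. Both starts were picked after their values were seen, and the reads of mt-Nd3 at this start also match nuclear transcripts.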
